A study of Canis lupus familiaris with 18 samples.

Results

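The genes CCND1, CCND2, CCND3, CDK4, CDK6, CCNE1, RB1, CDKN1A, CDKN1B and CDKN2C, which govern the G1 phase of the cell cycle, were followed through RNASeq libraries of canine high grade oligodendroglioma (HGO), a malignant glioma of dogs. The 10 genes were found by symbol among the 29993 genes of the count table, and all 10 passed the filter on low counts, which kept 16495 genes. The tumors lay in the forebrain, were resected before trial treatment, and were fixed in formalin and embedded in paraffin. Of the 18 libraries, 11 were labelled French bulldog and, for comparison, 4 boxer and 3 Boston terrier, with no experimental allele or agent. French bulldogs 2 and 8 carry the same case number in their library names, so n counts libraries. The number of separate French bulldogs may be lower than the 11 that the paper counts. Age was not used here, because the labels do not give it. Per the paper, French bulldogs were younger on average, and the groups also differed in sex and tumor location. The fits did not allow for these differences. There was no normal brain, so levels are compared between tumors only.

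D-type cyclins (CCND1, CCND2 and CCND3) are made in response to growth signals and activate the kinases CDK4 and CDK6. These kinases phosphorylate the retinoblastoma protein, the product of RB1, which otherwise holds E2F transcription factors back. Released E2F factors turn on cyclin E (CCNE1 and CCNE2) and the genes of DNA replication, and the cell enters S phase. CDKN2C encodes an inhibitor that binds CDK4 and CDK6, whereas CDKN1A, a target of p53, and CDKN1B inhibit kinases bound to cyclins. In human gliomas this pathway is often altered, by gain of CDK4, CDK6 or D-type cyclin genes or by loss of RB1 or of CDK inhibitors.

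Counts on genes ranged from 8212452 to 13169880 per library. Levels are given as normalized CPM, counts scaled to the library size and by TMM factors, and 3 counts, taken as the smallest level the depth could show, were 0.223 to 0.351 normalized CPM. The lowest count of any of the 10 genes was 9, for CDKN1A, so every gene was measured in every library. Levels of different genes are not compared, since they were not scaled by gene length. French bulldog 6 stood apart, with rank correlations of 0.553 to 0.714 with the other libraries, which among themselves reached at least 0.795. Its 11 measured oligodendrocyte lineage markers summed to 63.7 normalized CPM against 5284 to 14040 in the other 17 libraries, and OLIG2 and NKX2-2 had 0 counts there. Its 12 macrophage and microglia markers summed to 8325 against 74.4 to 483.1, and its 7 neuron markers to 0.833 against 58.1 to 1311. The lineage markers of the labelled tumor were thus present in the other 17 libraries. The counts of French bulldogs 2 and 8 had the highest rank correlation of all 153 pairs of libraries (0.989, the next 0.958). Their counts still differed by more than sampling noise, with a chi-square of 9.41 per degree of freedom over 15000 genes, so they were not treated as the same library deposited again. That does not show that they came from separate dogs, since repeat samples of a tumor can also differ by more than sampling noise. They entered the fits as 2 libraries, and fits with their counts summed are given beside several results. In bulk tissue, fewer cells of a type and less RNA per cell cannot be told apart.

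None of the 10 genes differed between French bulldogs and the comparison group at an adjusted p under 0.05 (quasi-likelihood F test of edgeR, Benjamini-Hochberg over all 16495 genes tested), where 0.00606% of all genes did. DESeq2's Wald test also called 0 of the 10, against 0.259% of the genes it tested. At an unadjusted p under 0.05 in edgeR, CDK6 and CCND1 were higher in French bulldogs, 2 of 10 genes against 7.02% of all genes, and 0 of 10 were lower, against 3.55% of all genes. The log2 fold change was above 0 for 7 of the 10 genes, with a median of 0.21, and the median of all genes tested was 0.04. No gene of the 10 had levels that did not overlap between the groups, which 0.0546% of all genes had. Levels by library are shown in the plot by breed.

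**Figure D1:**
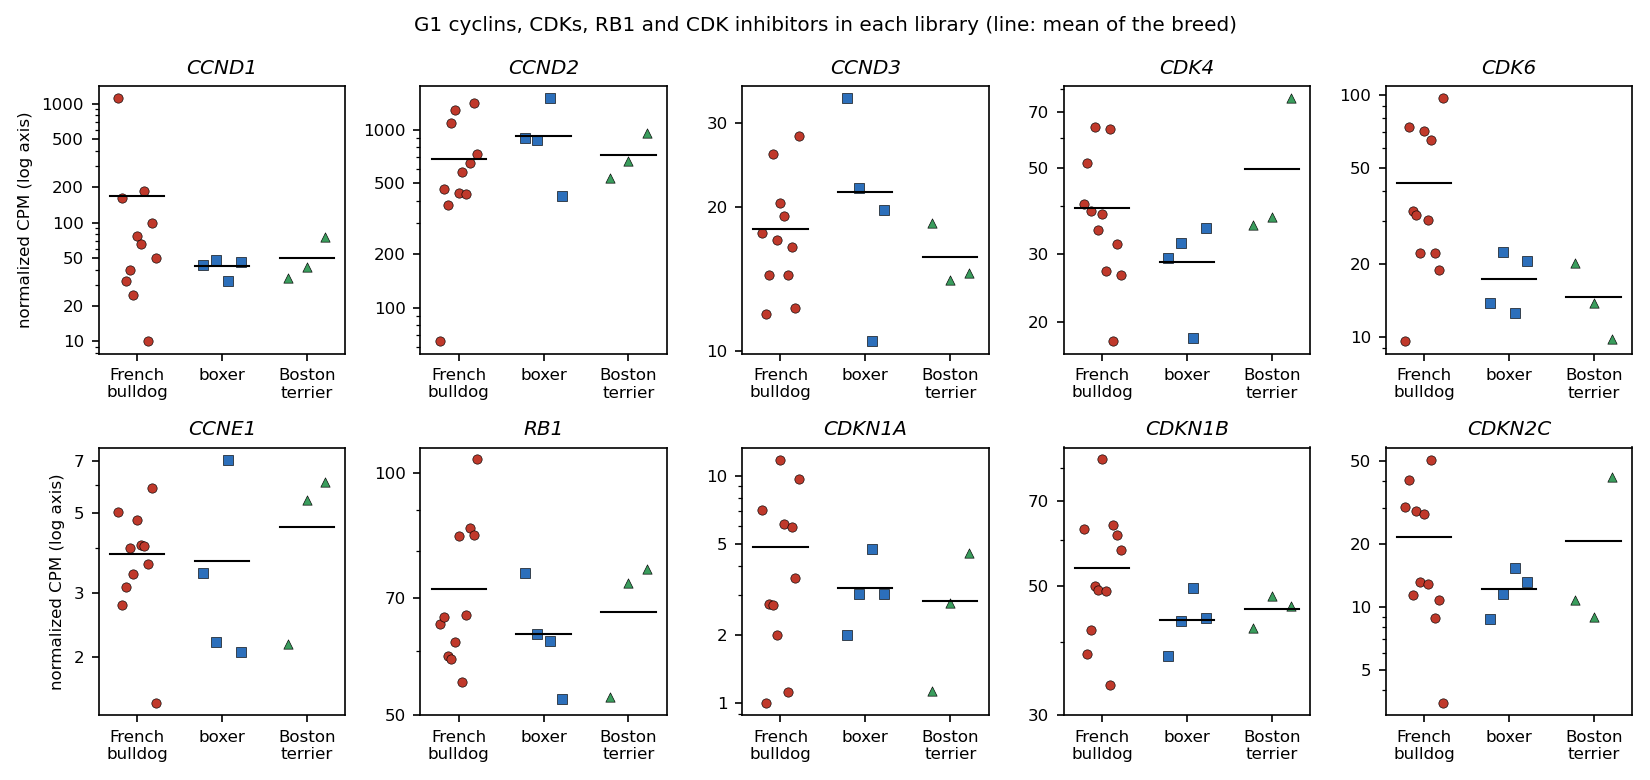
Normalized CPM on a log axis for each of the 10 genes, with a point per library in 11 French bulldogs (circles), 4 boxers (squares) and 3 Boston terriers (triangles), and a line at the mean of the breed. CDK6 of 7 French bulldog libraries, among them 2 and 8 of the same case, lies above all 7 boxers and Boston terriers. CCND1 of French bulldog 1 lies at 1112 normalized CPM.

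CDK6 (ENSCAFG00000001998), a catalytic partner of the D-type cyclins, showed the smallest p of the 10 genes between the groups. Its level in French bulldogs was 9.59 at the lowest, 31.8 at the median and 96.8 normalized CPM at the highest. Boxers 1, 3, 4 and 5 had 13.8, 22.5, 12.6 and 20.5 normalized CPM. Boston terriers 2, 6 and 7 had 20.1, 13.8 and 9.77 normalized CPM. In 7 French bulldog libraries, among them 2 and 8 of the same case, the level was above that of all comparison dogs. Another 3 lay within their range, and French bulldog 1 lay below it. The mean was 43.1 ± 28.3 normalized CPM (SD, n = 11) in the French bulldogs, against 16.2 ± 4.82 (SD, n = 7) in boxers and Boston terriers together, giving a log2 fold change of 1.41 with a standard error of 0.40 and an adjusted p of 0.433 (edgeR). By unadjusted p (0.00217) CDK6 ranked 72 of the 16495 genes tested.

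High CDK6 was found in a few tumors. French bulldogs 11, 2, 6 and 8 had 96.8, 73.5, 70.5 and 64.7 normalized CPM, and the next highest library, French bulldog 3, had 33.1. Of these libraries, 6 is the one with the lowest oligodendrocyte lineage markers, and 2 and 8 are the pair of the shared case. With 2 and 8 summed and 6 left out, the log2 fold change of CDK6 was 1.20 with a standard error of 0.39 (edgeR, unadjusted p = 0.0068, adjusted p = 0.496). Against single breeds, the log2 fold change of CDK6 was 1.31 for the boxers (standard error 0.50) and 1.56 for the Boston terriers (standard error 0.58). Comparison libraries fall into 2 series by the numbers in their names, and the log2 fold change of CDK6 was 1.32 against the first series and 1.56 against the second. The French bulldogs were placed in a series apart from both, so a difference by series and one by breed cannot be told apart. The labels do not say what these numbers mark.

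CDK4 (ENSCAFG00000000280), the other kinase of this step, had nearly equal means in the groups. French bulldogs ranged from 17.8 through a median of 38.1 to 63.8 normalized CPM. In boxers 1, 3, 4 and 5 it was 29.3, 31.99, 18.2 and 34.9 normalized CPM. In Boston terriers 2, 6 and 7 it was 35.7, 37.5 and 75.9 normalized CPM. The groups overlapped almost fully, and the highest level of all 18 libraries was that of Boston terrier 7. The mean was 39.4 ± 14.7 (SD, n = 11) against 37.6 ± 18.04 normalized CPM (SD, n = 7), a log2 fold change of 0.07 with a standard error of 0.27 (edgeR, adjusted p = 0.96), or -0.047 without boxer 4. Every Boston terrier lay above every boxer for CDK4, and the log2 fold change of boxers over Boston terriers was -0.80 with a standard error of 0.40 (edgeR, unadjusted p = 0.0589, adjusted p = 1). Without Boston terrier 7 this value for CDK4 was -0.36 (unadjusted p = 0.411).

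**Figure D2:**
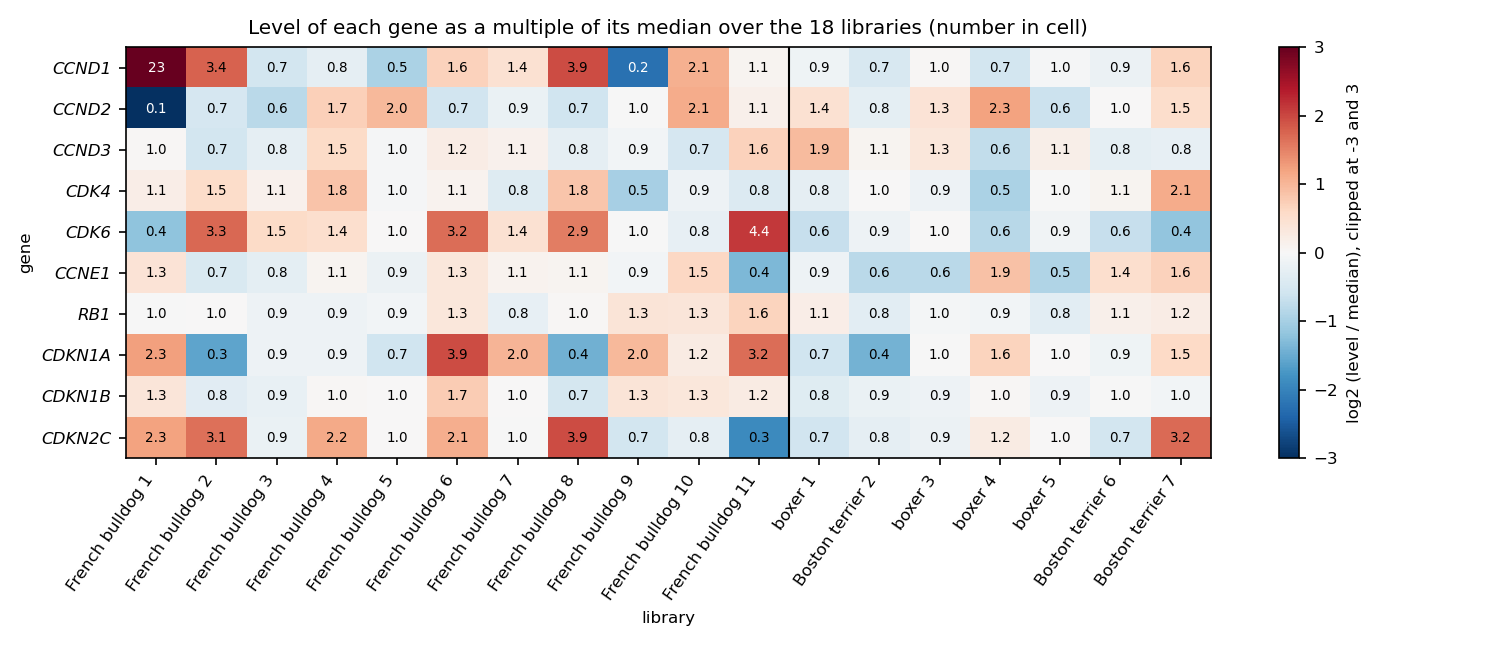
Level of each gene (rows) in each library (columns) as a multiple of that gene's median over the 18 libraries, with the color on a log2 scale clipped at 3 in either direction and a vertical line between French bulldogs and the comparison group. French bulldog 1 combines 23.4 times the median of CCND1 with 0.0981 times that of CCND2, and RB1 stays close to its median in all libraries.

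CCND1 and CCND2, but not CCND3, were extreme in French bulldog 1. CCND1 (ENSCAFG00000010700) in French bulldogs was 10.0 at the lowest, 65.5 at the median and 1112 normalized CPM at the highest. The highest level, that of French bulldog 1, rested on 14959 counts and made up 59.9% of the sum over the 11 French bulldogs. French bulldogs 8 and 2 followed with 184.7 and 161.5 normalized CPM, and French bulldog 9 was lowest. Levels in boxers 1, 3, 4 and 5 were 43.7, 48.8, 32.4 and 46.4 normalized CPM. Levels in Boston terriers 2, 6 and 7 were 34.0, 42.1 and 76.2 normalized CPM. French bulldogs thus lay on both sides of the comparison group. Of their libraries, 5 were above its highest dog, among them 2 and 8 of the same case, and 2 were below its lowest.

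The group difference in CCND1 turned on French bulldog 1. With all libraries the mean of CCND1 was 168.8 ± 317.8 normalized CPM (SD, n = 11) in the French bulldogs, against 46.2 ± 14.5 (SD, n = 7) in boxers and Boston terriers together, giving a log2 fold change of 1.87 with a standard error of 0.77 (edgeR, unadjusted p = 0.0253, adjusted p = 0.433). Without French bulldog 1 the French bulldog mean was 74.5 ± 58.4 normalized CPM. It then gave a log2 fold change for CCND1 of 0.69 with a standard error of 0.45 (edgeR, unadjusted p = 0.147, adjusted p = 0.595).

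CCND2 (ENSCAFG00000015381) was lowest in the library where CCND1 was highest. French bulldog 1 had 64.6 normalized CPM of CCND2, and the other 10 French bulldogs ranged from 376.6 to 1416. Among boxers, 1, 3, 4 and 5 had 904.2, 879.5, 1510 and 422.4 normalized CPM of CCND2. Among Boston terriers, 2, 6 and 7 had 539.9, 666.2 and 956.3 normalized CPM. Apart from French bulldog 1 the groups overlapped, and the mean was 686.5 ± 416.6 (SD, n = 11) against 839.7 ± 356.4 normalized CPM (SD, n = 7). The log2 fold change of CCND2 was -0.29 with a standard error of 0.41 (edgeR, adjusted p = 0.837), and -0.17 without French bulldog 1. It ran from -0.45 to -0.069 with each library left out in turn. Over the 18 libraries the Spearman correlation of CCND1 with CCND2 was -0.35, a description over libraries that share depth and tissue makeup.

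CCND3 (ENSCAFG00000001618) varied least of the D-type cyclins. Its levels were 11.9 to 28.2 normalized CPM in French bulldogs, with a median of 17.1. For boxers 1, 3, 4 and 5 the levels were 33.9, 21.9, 10.49 and 19.8 normalized CPM, and so held both the highest and the lowest of the 18 levels. For Boston terriers 2, 6 and 7 the levels were 18.5, 14.1 and 14.6 normalized CPM. CCND3 had a log2 fold change between the groups of -0.08 with a standard error of 0.23 (edgeR, adjusted p = 0.931), and it took the other sign without boxer 1 (0.12).

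**Figure D3:**
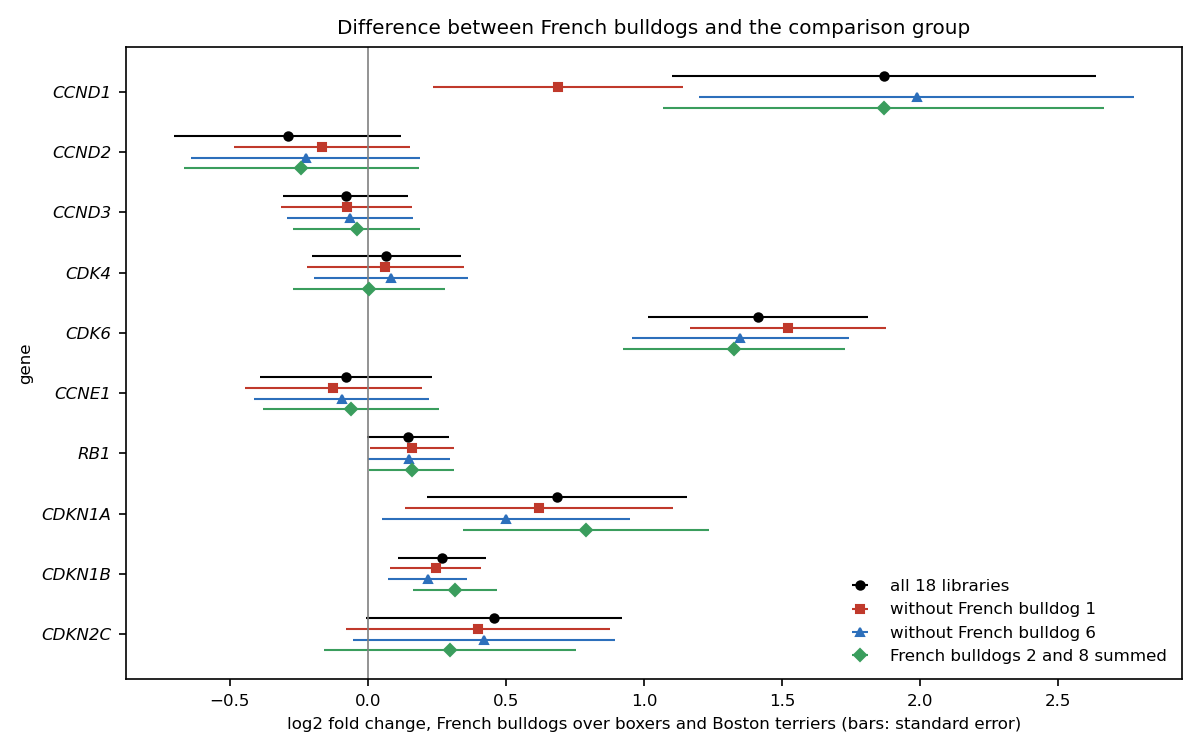
Log2 fold change of French bulldogs over boxers and Boston terriers for the 10 genes, with bars of 1 standard error, for all 18 libraries, without French bulldog 1, without French bulldog 6 and with French bulldogs 2 and 8 summed. CCND1 moves from 1.87 to 0.69 without French bulldog 1, and CDK6 stays between 1.33 and 1.52.

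RB1 (ENSCAFG00000004436), the substrate that CDK4 and CDK6 act on, had the narrowest spread of the 10 genes. French bulldogs ranged from 54.9 through a median of 66.2 to 104.1 normalized CPM. The boxers numbered 1, 3, 4 and 5 had 75.2, 63.1, 61.8 and 52.3 normalized CPM. The Boston terriers numbered 2, 6 and 7 had 52.7, 73.1 and 75.9 normalized CPM. The highest level was 1.99 times the lowest, and no library lacked RB1 reads. The SD of log2 CPM over the 18 libraries, 0.27, lay at percentile 4.32 of all genes tested. Between the groups the log2 fold change of RB1 was 0.15 with a standard error of 0.15 (edgeR, adjusted p = 0.747).

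Among the inhibitors, CDKN1A and CDKN1B reached their highest levels in French bulldog 6. CDKN1A (ENSCAFG00000029853) rested on 9 to 113 counts per library, with 1.00 at the lowest, 3.56 at the median and 11.8 normalized CPM at the highest in French bulldogs. Boxers 1, 3, 4 and 5 had 2.00, 3.02, 4.77 and 3.03 normalized CPM of CDKN1A. Boston terriers 2, 6 and 7 had 1.13, 2.76 and 4.55 normalized CPM. The lowest levels, 1.00 and 1.12, were those of French bulldogs 2 and 8, of the same case, and 5 French bulldogs lay above the comparison group. CDKN1A gave a log2 fold change of 0.68 with a standard error of 0.47 (edgeR, adjusted p = 0.6), and 0.50 without French bulldog 6.

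CDKN1B (ENSCAFG00000013244) was steadier, with 33.8 at the lowest, 50.0 at the median and 82.9 normalized CPM at the highest in French bulldogs. In boxers 1, 3, 4 and 5 there were 38.0, 43.6, 49.6 and 44.1 normalized CPM. In Boston terriers 2, 6 and 7 there were 42.4, 48.2 and 46.2 normalized CPM. In 6 French bulldogs CDKN1B lay above all 7 dogs of the comparison group, and in 1 it lay below all of them. Means were 53.7 ± 13.9 (SD, n = 11) and 44.6 ± 3.88 normalized CPM (SD, n = 7), with a log2 fold change of 0.27 and a standard error of 0.16 (edgeR, adjusted p = 0.549). Without French bulldog 6 the French bulldog mean of CDKN1B was 50.8 ± 10.54 normalized CPM. CDKN1A and CDKN1B had the highest Spearman correlation of the 45 pairs among the 10 genes, 0.773 over 18 libraries and 0.73 without French bulldog 6.

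CDKN2C (ENSCAFG00000028905), which binds the CDK4 and CDK6 kinases directly, was high in 5 French bulldog libraries and 1 Boston terrier. French bulldogs 2 and 8, of the same case, were among the 5. In French bulldogs it was 3.47 at the lowest, 13.1 at the median and 50.9 normalized CPM at the highest. French bulldogs 8, 2, 1, 4 and 6 had 50.9, 40.8, 30.3, 28.8 and 27.9 normalized CPM, and the other 6 had at most 13.1. Levels in boxers 1, 3, 4 and 5 were 8.72, 11.5, 15.4 and 13.2 normalized CPM. Levels in Boston terriers 2, 6 and 7 were 10.8, 8.95 and 42.2 normalized CPM, so that Boston terrier 7 sat among the 5 high French bulldogs. The log2 fold change of CDKN2C between the groups was 0.46 with a standard error of 0.46 (edgeR, adjusted p = 0.747), 0.93 without Boston terrier 7 (adjusted p = 0.465) and 0.25 without French bulldog 8 (adjusted p = 0.902). With French bulldogs 2 and 8 summed it was 0.30, and against the Boston terriers alone 0.054.

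CCNE1 (ENSCAFG00000007614), the cyclin made once E2F is released, rested on 15 to 74 counts per library and overlapped between the groups. French bulldogs had 1.49 at the lowest, 4.01 at the median and 5.90 normalized CPM at the highest. Among boxers, 1, 3, 4 and 5 had 3.41, 2.19, 7.06 and 2.05 normalized CPM of CCNE1. Among Boston terriers, 2, 6 and 7 had 2.16, 5.44 and 6.13 normalized CPM. The highest level was that of boxer 4, which also held the highest CCND2, and the lowest that of French bulldog 11. CCNE1 gave a log2 fold change of -0.08 with a standard error of 0.31 (edgeR, adjusted p = 0.957), and 0.13 without boxer 4.

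Breed by breed, with the 3 breeds in a joint edgeR fit over 17934 genes, 0 of the 10 genes passed an adjusted p of 0.05 in any pair. Of all genes, 0% passed between French bulldogs and boxers, 0.00558% between French bulldogs and Boston terriers and 0% between boxers and Boston terriers. CDK6 was the single gene of the 10 with an unadjusted p under 0.05 in that fit, 0.0182 against boxers and 0.0149 against Boston terriers, and none had one between boxers and Boston terriers. DESeq2's Wald test also called 0 of the 10 in each pair. With 3 Boston terriers and 4 boxers, the standard errors of the log2 fold changes between those breeds ran from 0.24 for RB1 to 1.16 for CCND1.

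To set the 10 genes against the replicative state of each tumor, a DNA replication score averaged the z-scored log2 CPM of 16 measured genes of DNA synthesis, such as the MCM helicase subunits, PCNA and the ribonucleotide reductase subunits, with none of the 10 genes among them. The score was highest in French bulldogs 6, 8 and 2 (1.33, 1.27 and 1.19) and in Boston terrier 7 (1.09), and lowest in boxer 3 (-1.23) and French bulldog 11 (-1.06). CDK4 and CDKN2C rose with the score in a fit that allowed for the group, 2 of 10 genes against 3.34% of all genes, and 0 of 10 fell with it, against 4.97%. Their levels are shown in the plot against the score.

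**Figure D4:**
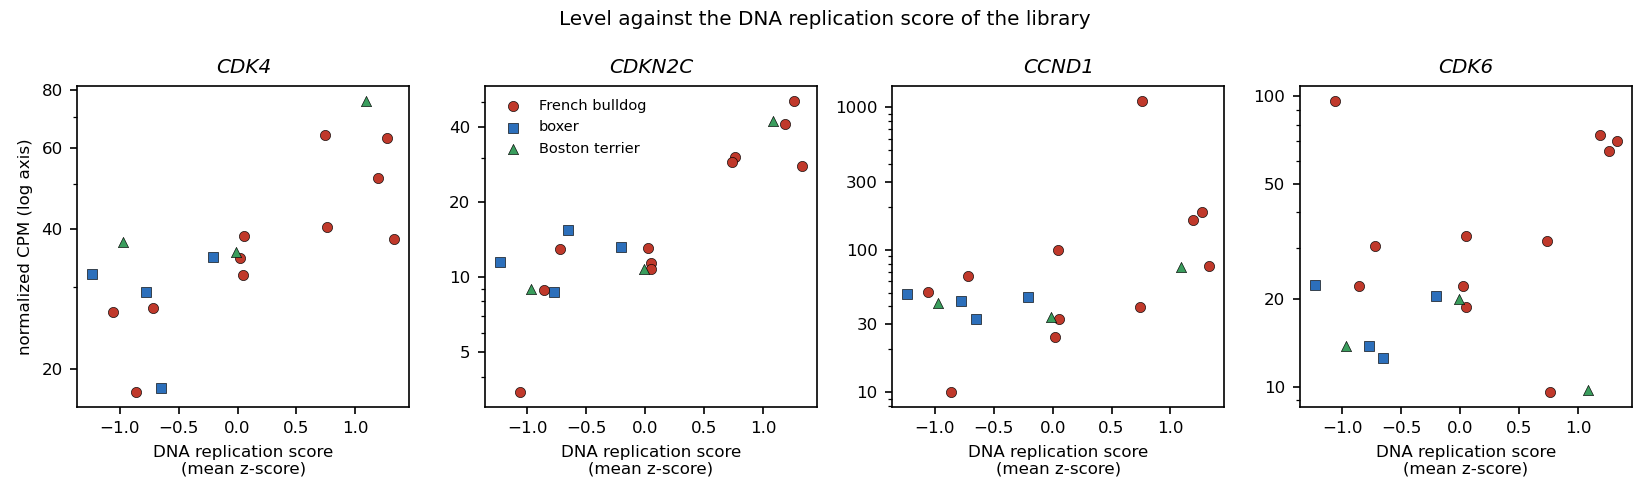
Normalized CPM (log axis) of CDK4, CDKN2C, CCND1 and CDK6 against the DNA replication score of each library, for French bulldogs (circles), boxers (squares) and Boston terriers (triangles). CDKN2C and CDK4 are high in Boston terrier 7 and French bulldogs 2 and 8, which have scores of 1.09 to 1.27, whereas CDK6 has its highest level in French bulldog 11, at a score of -1.06.

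CDKN2C had the steepest called slope of the 10 genes, 1.05 log2 units per unit of score with a standard error of 0.14 (edgeR, adjusted p = 0.000135), and it was called in each of the 18 fits that left out a library. CDK4 had a slope of 0.54 with a standard error of 0.11 (edgeR, adjusted p = 0.00541), and was likewise called in all 18 such fits. Within French bulldogs alone the slope of CDKN2C was 1.08 (adjusted p = 0.00634) and that of CDK4 0.48 (adjusted p = 0.061). Within the comparison group alone the slopes were 0.85 for CDKN2C (adjusted p = 0.136) and 0.55 for CDK4 (adjusted p = 0.255), so neither was called among those 7 libraries. CCND1 had a slope of 1.06 with a standard error of 0.47 that was not called (edgeR, adjusted p = 0.166), and 0.63 without French bulldog 1. CDK6 had a slope of 0.03 with a standard error of 0.22, and without French bulldog 11 it was 0.38 with a standard error of 0.22 (edgeR, unadjusted p = 0.104, adjusted p = 0.278). RB1 had a slope of -0.07 with a standard error of 0.09, which ran from -0.14 without Boston terrier 7 to 0.0064 without French bulldog 11. CCNE1, whose gene is an E2F target, had a slope of 0.20 with a standard error of 0.19 (edgeR, adjusted p = 0.538), and 0.093 without French bulldog 11.

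Of the 7 neuron markers 4 fell with the score (RBFOX3, NEFL, GRIN1 and SNAP25), against 4.97% of all genes, and their median slope was -2.18 log2 units. Of the 5 astrocyte markers 1 fell with it (GJA1), and their median slope was -1.03. With a library left out, RBFOX3 and GJA1 were called in 15 and 16 of 18 fits, and NEFL, GRIN1 and SNAP25 in 10, 6 and 5. None of the 12 macrophage and microglia markers was called, although their median slope was 0.98, and none of the 11 oligodendrocyte lineage markers was called, with a median slope of 0.14. The part of these cell types in the slopes of CDK4 and CDKN2C was not tested. Without French bulldog 6, whose score was highest and whose neuron markers were lowest, the slopes were 1.04 for CDKN2C and 0.57 for CDK4.

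The rest of the pathway gave no called difference between French bulldogs and the comparison group either. Of the 10 measured genes of the RB and E2F families, 1 was higher and 1 lower at an unadjusted p under 0.05 (edgeR), against 7.02% and 3.55% of all genes, and none was called. RBL1, a relative of RB1, differed by 0.90 on the log2 scale (standard error 0.31, adjusted p = 0.433), TFDP2, a dimerization partner of E2F factors, -0.67 (standard error 0.25, adjusted p = 0.433), and E2F8, a repressive E2F, 1.22 (standard error 0.68, adjusted p = 0.524), or 0.74 without French bulldog 6. Of these 10 genes, 4 rose with the replication score (RBL1, E2F8, E2F2 and E2F7), against 3.34% of all genes. CDKN3 and CDKN2B, the 2 other measured genes that are named as CDK inhibitors, had log2 fold changes of 0.61 and -0.06. Without French bulldog 1 these were 0.32 and -0.62. CDKN3 without Boston terrier 7 had 1.04. CDKN3 rose with the score, and was called in 13 of the 18 fits that left out a library. CDKN2A was not analysed here.

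Among 13 other cyclins, CDKs and regulators of the G1/S transition, CCNA2, the cyclin of S phase, was the single gene with an unadjusted p under 0.05, at a log2 difference of 0.84 (standard error 0.38, adjusted p = 0.455). CCNC and SKP2 followed with log2 fold changes of 0.40 and 0.31. CCNA2, CDC25A and CDK2 rose with the replication score, 3 of 13 genes against 3.34% of all genes, and with a library left out they were called in 18, 12 and 16 of 18 fits. All 16 DNA replication genes had log2 fold changes above 0, with a median of 0.76, and 5 had an unadjusted p under 0.05, led by MCM3 (1.03), FEN1 (0.68) and GINS2 (1.01). All 17 mitosis genes also had log2 fold changes above 0, with a median of 1.05, and 8 had an unadjusted p under 0.05, led by CCNB2 (1.69), TOP2A (1.34) and KIF11 (1.42). Of all genes tested, 53.7% had log2 fold changes above 0 and 7.02% were higher at an unadjusted p under 0.05. None of either list was called, and the smallest adjusted p in each was 0.433. These genes vary together, so their counts are not independent.

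French bulldogs 6, 8 and 2 had the highest replication scores of the French bulldogs, and both list counts were lower when 6 was left out or 2 and 8 were summed. With French bulldog 6 left out, 3 of 16 DNA replication and 3 of 17 mitosis genes were higher at an unadjusted p under 0.05, against 6.92% of all genes. With French bulldogs 2 and 8 summed there were 2 of 16 and 2 of 17, against 6.45%. With both changes there were 0 of 16 and 0 of 17, against 4.54%, and 0 were called, while 15 and 16 of them had log2 fold changes above 0, with medians of 0.45 and 0.64, against 52.7% of all genes. Of the 12 macrophage and microglia markers, 0 were called between the groups with all libraries. At an unadjusted p under 0.05, 7 of 12 were higher, against 7.02% of all genes, with a median log2 fold change of 2.01. Without French bulldog 6 that was 0 of 12, against 6.92% of all genes, with a median of 0.22. The part of these cells in the list counts was not tested.

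Of 9 upstream growth signal genes, none was called between the groups (edgeR), and PIK3CA and MET had log2 fold changes of 0.20 and 0.77 (adjusted p = 0.67 and 0.681). Without French bulldog 11, MET had a log2 fold change of 0.12, and without boxer 4 PIK3CA had 0.13. EGFR, 1 of the 9 against 4.97% of all genes, fell with the replication score, with a slope of -1.41 (edgeR, adjusted p = 0.0417). It was called in 6 of the 18 fits that left out a library, and without French bulldog 11 the slope was -0.57. Of 8 p53 targets beside CDKN1A, SESN1 alone had an unadjusted p under 0.05, at a log2 difference of 0.56 (standard error 0.24, adjusted p = 0.434), 1 of 8 higher against 7.02% of all genes and 0 of 8 lower against 3.55%. With French bulldogs 2 and 8 summed and 6 left out, 0 of 8 were higher at that threshold, against 4.54%. With all libraries CCNG1 and SESN2 had log2 fold changes of 0.50 and -0.17. CCNG1 reached 336.0 normalized CPM in French bulldog 6, where the remaining 17 libraries had 37.7 to 130.4, and without French bulldog 6 its log2 fold change was 0.072. SESN2 had -0.0132 without boxer 4. None of the 8 rose or fell with the score.

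The neighbours of the 10 genes along the chromosome were then looked at, up to 3 measured genes on each side, by gene order in RefSeq's annotation of the German shepherd assembly. CCND1 lies next to LTO1 and FGF4 on one side and TPCN2 on the other. FGF4, a fibroblast growth factor, was the single gene called between the groups (edgeR, adjusted p = 0.0305), with 0 counts in each of the 7 comparison dogs, 2 to 65 in French bulldogs and a highest level of 4.83 normalized CPM in French bulldog 1, against 3.66 in the next. The mean of FGF4 in French bulldogs was 2.21 ± 1.40 normalized CPM (SD, n = 11), at least 6.81-fold higher than 3 counts in a comparison library. With French bulldogs 2 and 8 averaged that bound was 6.60-fold. The adjusted p of FGF4 was 0.077 with 2 and 8 summed and under 0.05 in 6 of the 18 edgeR fits that left out a library, and DESeq2 gave 1.225e-09. Its unadjusted p in edgeR was 1.846e-06 with all libraries and 4.644e-06 with 2 and 8 summed. Counts per gene do not separate FGF4 from its retrogene copies. Per the paper, such a copy is very frequent in French bulldogs, not seen in Boston terriers and not evaluated in boxers. The paper proposes that the FGF4 difference might be only a breed variant or might contribute to tumor behavior. Neither was tested here. TPCN2, a lysosomal channel, was also highest in French bulldog 1, with 147.5 normalized CPM against 81.8 in the next library, or 4.24 times the median of TPCN2. LTO1, MRPL21 and CPT1A were at 1.15, 1.02 and 0.72 times their medians in French bulldog 1. ANO1 was at 2.01 times its median there and had its highest level in French bulldog 3. Copy number was not measured in these libraries.

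CCND2 and its neighbour TIGAR, a regulator of glycolysis, varied together. TIGAR was between 69.6 and 95.7 normalized CPM in French bulldogs 4, 5 and 10, boxer 4 and Boston terriers 6 and 7, and between 24.4 and 53.7 in the other 12 libraries. The 5 libraries with the highest CCND2 (boxer 4, French bulldogs 10, 5 and 4 and Boston terrier 7) were all among those 6. The Spearman correlation of TIGAR with CCND2 was 0.87 over 18 libraries, the highest of any gene tested, and 0.868 without French bulldog 6. The other 5 measured neighbours of CCND2 had correlations between -0.373 and -0.063.

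RB1 varied with several neighbours. The rank correlation with RB1 was 0.829 for FNDC3A, 0.754 for MED4, 0.622 for ITM2B and 0.577 for RCBTB2, over 18 libraries. For CDK4, which in human gliomas is often gained together with its neighbours, the rank correlation was 0.255 with TSPAN31 and 0.075 with METTL1, and 0.534 with MARCHF9. For CDK6, the rank correlation was 0.645 with RBM48 and at most 0.422 with the other 5 neighbours. SAMD9L, next to CDK6 and an interferon-responsive gene, had 57.4% of its sum over all libraries in French bulldog 6. These values describe 18 libraries that share depth and cell makeup, and no p is given for them.

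The genes most alike to the members in log2 CPM over the 18 libraries, by Spearman correlation, differed in kind. CDK4 was most like CTPS1 (0.922), a CTP synthase, and MCM2 (0.905), a subunit of the replicative helicase. CDKN2C was most like POLD1 (0.932), the catalytic subunit of DNA polymerase delta, and CKAP2 (0.901). CDK6 was most like ZNFX1 (0.812) and SEPTIN9 (0.777), and CCND3 like KDM3A (0.806), a histone demethylase, and PLXNB2 (0.796). CDKN1A was most like UROD (0.92), an enzyme of heme synthesis, and MAP4K1 (0.895), and CDKN1B like ACSL1 (0.853) and EIF4H (0.851). CCND1 was most like PSMC2 (0.839), a proteasome ATPase, and ARF6 (0.814), CCND2 was like NETO1 (0.833) after TIGAR, and CCNE1 like SAE1 (0.744) and TOPBP1 (0.721). The first gene stayed the same without French bulldog 6 for CDK6, CCND1, CCND2, CDKN1A and CDKN2C, and changed for CDK4, CCND3, CDKN1B and CCNE1.

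PSMC2, TIGAR and SAE1 lie on the chromosome of the gene they resembled, so the chromosome of the 50 most alike genes was counted, a count chosen after these values were seen. Of the 50 genes most like RB1, 16 (32%) lay on its chromosome, which holds 1.09% of the 11154 tested genes with a known chromosome. For CCND1 the count was also 16 (32%), against 3.47% of genes. CDKN2C and CCNE1 had 7 each (14%), against 2.59% and 5.78%, and CDK4 had 6 (12%), against 3.45%. CCND3 had 5 (10%), against 3.05%, and CDK6, CCND2, CDKN1A and CDKN1B had 2, 1, 1 and 0 of 50. The counts for RB1 and CCND1 were 16 each without French bulldog 6, and 18 and 16 without French bulldogs 6 and 8. Genes of a chromosome are not independent of each other, and no test was made.

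**Figure D5:**
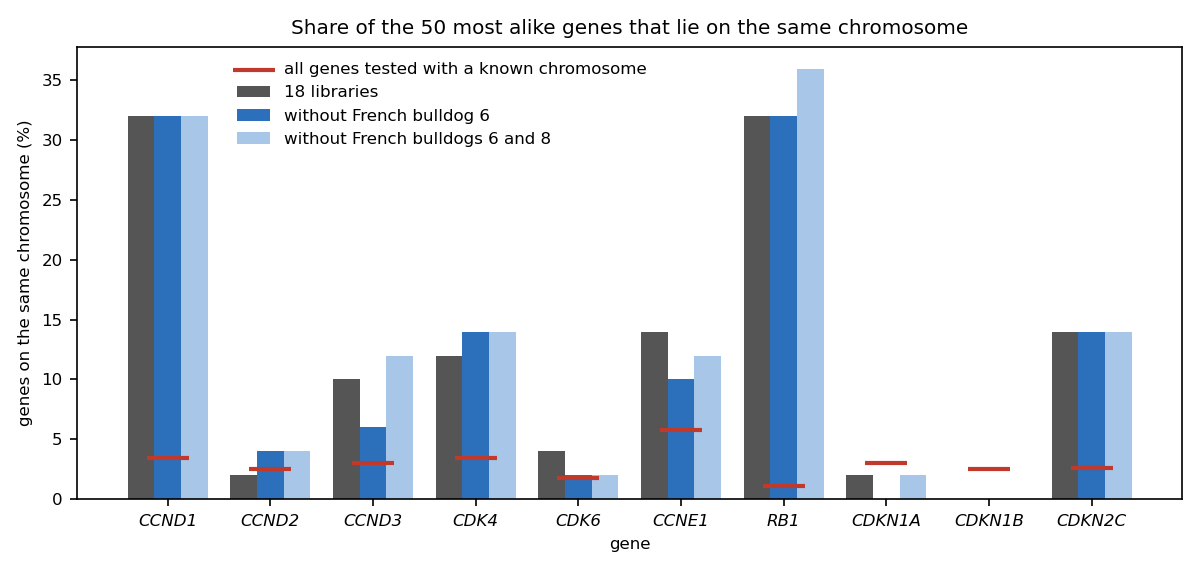
Share of the 50 genes most alike to each of the 10 genes that lie on the same chromosome, in percent, over 18 libraries (grey), without French bulldog 6 (blue) and without French bulldogs 6 and 8 (light blue), with a red line at the share among all tested genes with a known chromosome. RB1 and CCND1 stand at 32% over 18 libraries, against 1.09% and 3.47% of all such genes.

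Seen by tumor, the 10 genes combined in different ways. French bulldog 1 had high CCND1, CDKN1A and CDKN2C (over 2 times the median of 18 libraries) with low CCND2 and CDK6 (under 0.5 times). French bulldogs 2 and 8 had high CCND1, CDK6 and CDKN2C with low CDKN1A. French bulldog 6, the library with the lowest oligodendrocyte lineage markers, had high CDK6, CDKN1A and CDKN2C, and none of the 10 genes was low there. In French bulldog 10 CCND1 and CCND2 were both high, in French bulldog 4 CDKN2C and in French bulldog 7 CDKN1A. In French bulldog 11 CDK6 and CDKN1A were high and CDKN2C and CCNE1 low, and RB1 was the highest of all libraries at 104.1 normalized CPM. French bulldog 9 had low CCND1, and its CCND1 and CDK4 were the lowest of the 18 libraries. Among the comparison dogs, Boston terrier 7 had high CDK4 and CDKN2C with low CDK6, boxer 4 had high CCND2 and Boston terrier 2 low CDKN1A. French bulldogs 3 and 5, boxers 1, 3 and 5 and Boston terrier 6 had none of the 10 genes outside 0.5 to 2 times the median.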

How the data were processed

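RNA was taken from formalin-fixed, paraffin-embedded tumor and sequenced as ribodepleted, paired-end libraries. Per the submitters' processing notes, the authors trimmed reads with Trimmomatic 0.33, mapped them with HISAT2 2.1.0 and counted them with featureCounts. They deposited raw counts per gene, without normalization, for 18 libraries. The strand and multi-mapping settings are not given in the sources used here, so overlapping and antisense genes may share reads.

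Groups were taken from the breed labels. Counts were filtered with filterByExpr, normalized by TMM and tested with edgeR 4.0.16 (quasi-likelihood F test, robust, no covariate, two-sided) in R 4.3.3, with Benjamini-Hochberg adjustment and a threshold of 0.05. Standard errors are the size of the log2 fold change over the square root of F. Another fit held the 3 breeds apart, and a further one held the group and the DNA replication score, made from log2 CPM with a prior count of 2. Alternatives were DESeq2 1.42.0, its size factors, upper quartile normalization, no filter, dispersions that were not robust, single breeds or library series, each library left out, a block for the library number, a mitosis score and no group term. The fits were tested on simulated data. The sums of French bulldogs 2 and 8 for the score, the sums with French bulldog 6 left out, the list counts in these settings, the list genes with each library left out and the slopes within groups were chosen after seeing the data.

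The 10 genes and the lists were chosen with earlier results of these data known. Genes named are the 10 genes, the 3 with the smallest p of each list, the 2 most alike to each gene and up to 3 measured neighbours on each side. Other genes, such as those that passed the test on the score, were named after their values were seen. The paper counts 18 dogs. The labels do not say that each library came from a separate dog, and French bulldogs 2 and 8 are named for 1 case. P-values therefore measure the spread between libraries. Count limits cover counting error only. No gene coordinates are given, since the annotation used for gene order is of another assembly. Results for some genes named by this rule are not reported here.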

Additional observations from a re-analysis of the deposited data

Results flagged for a closer look

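Boston terrier 7 stood apart from the other dogs of the comparison group in 3 of the 10 genes, in that the gap to the next of the 7 levels was large for their whole range (Dixon's ratio). CDKN2C was 42.2 normalized CPM there and 15.4 in the next dog, with a ratio of 0.799. CDK4 was 75.9 against 37.5 normalized CPM, with a ratio of 0.666. CCND1 was 76.2 against 48.8 normalized CPM, with a ratio of 0.626. The 10 genes were looked at in these 7 dogs and in the 4 boxers, 20 sets of levels in all. For independent sets of normally distributed levels, chance alone gives about 1 such gap in 20. These sets are not independent, since the boxers are among the 7 dogs and all 3 gaps are of Boston terrier 7. That rate is therefore only a rough guide. The ratio was not computed over groups of more than 10 libraries.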

How the results depend on the processing

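Of 310 values of the 10 genes under alternatives to the comparison of French bulldogs with the comparison group, 292 kept their direction and their side of the threshold and 18 changed sign, all of genes that were not called. The number of genes called, 1 of those tested, was 58 with DESeq2, 2 with upper quartile normalization, 0 with French bulldogs 2 and 8 summed, with or without French bulldog 6, 0 against the boxers alone or either library series, and 0 to 7 with a library left out. Library numbers 1 to 7 did not pair the libraries (correlations of -0.502 to 0.205, 2 of 7 best with their own number). The replicate block over them gave 0 genes called, and the same 14 libraries 5 without a block. The sign changed for CCND2 against the second library series (0.0087), for CCND3 against Boston terriers (0.21) and the second series (0.17), for CCNE1 against boxers (0.067), the first series (0.057) and with the block (0.077), for CDK4 against Boston terriers (-0.34) and the second series (-0.34), and for RB1 with the numbers 1 to 7 (-0.0147) and with the block (-0.0111). With a library left out, CCND3 ran from -0.16 to 0.12, CCNE1 from -0.19 to 0.13 and CDK4 from -0.047 to 0.34. CDK6 lay between 1.06 and 1.57 under all 31 alternatives, with an unadjusted p of at most 0.0245 and a smallest adjusted p of 0.0698 (DESeq2), and CCND1 between 0.69 and 2.23.

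Between French bulldogs and boxers, 23 genes were called with DESeq2 and 0 to 2 with a library left out, where CCND3 ran from -0.45 to 0.0498 and CCNE1 from -0.13 to 0.63. Between French bulldogs and Boston terriers, 8 genes were called with DESeq2 and 0 to 2 with a library left out, where CCND2 ran from -0.24 to 0.19, CCNE1 from -0.59 to 0.0184, CDK4 from -0.53 to 0.11, CDKN2C from -0.29 to 1.14 and RB1 from -0.058 to 0.19. Between boxers and Boston terriers, CCND1 ran from -0.47 to 0.17, CCND2 from -0.0013 to 0.62, CDKN1A from -0.20 to 0.71, CDKN1B from -0.15 to 0.0015, CDKN2C from -1.13 to 0.30 and RB1 from -0.24 to 0.0026.

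For the DNA replication score, 2826 genes were called with DESeq2, 2281 without a group term, 689 with French bulldogs 2 and 8 summed, 621 with French bulldog 6 also left out, 424 within French bulldogs, 3 within the comparison group and 468 to 1940 with a library left out. The 10 genes held 2 called in the other settings, 3 with DESeq2 and without a group term, where CCND1 joined with slopes of 1.05 and 1.31, 1 within French bulldogs and 0 within the comparison group. Slopes that changed sign were those of CDK6 with 2 and 8 summed (-0.037), with 6 also left out (-0.16) and within the comparison group (-0.27), of CDKN1A (0.19), CDKN1B (0.0138) and RB1 (0.0194) within the comparison group, and of CDKN1B with 2 and 8 summed (0.0147), the mitosis score (0.0022) and no group term (0.0345). With a library left out, slopes ran from -0.069 to 0.38 for CDK6, -0.39 to 0.051 for CDKN1A, -0.12 to 0.025 for CDKN1B and -0.14 to 0.0064 for RB1. The cause of these changes was not tested.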
